A study of Mus musculus with 2 samples.

Results

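The miR-181 family consists of 6 microRNA genes in 3 pairs, Mir181a-1 with Mir181b-1, Mir181a-2 with Mir181b-2, and Mir181c with Mir181d. Its members were taken by GENCODE M21 gene symbol from the 2202 microRNA genes of the deposited tables, by name and not by a threshold on their values. All 6 had reads in both libraries. The material was whole heart of male B6CASTF1/J mice aged 4 days, the F1 hybrid of C57BL/6J and CAST/EiJ, with 1 small-RNA library for each of biological replicates 1 and 2. No treatment, mutation or control group is named in the labels, so the question is how the family is made up in the neonatal heart and how far the 2 libraries differ. The replicates are numbered as different males but share a donor identifier. If they are not separate animals, the spread between them is technical.

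MicroRNAs are cut from hairpin precursors, and either arm of the hairpin (5p or 3p) can be loaded into Argonaute. Bases 2 to 8 of the loaded arm, the seed, select most target transcripts. In the mouse, miR-181a is best known from thymocytes, where it tunes the sensitivity of the T cell receptor. miR-181b restrains NF-kB signalling in vascular endothelium, and miR-181c has been found inside the mitochondria of rodent heart muscle, where it acts on a transcript of the mitochondrial genome.

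The 6 genes encode 4 different 5p arms, which are shown with the seed in capitals because the family is defined by it (RefSeq, GRCm38.p6).
miR-181a-5p: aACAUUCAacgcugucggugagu
miR-181b-5p: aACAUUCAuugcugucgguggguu
miR-181c-5p: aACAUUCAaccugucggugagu
miR-181d-5p: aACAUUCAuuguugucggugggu

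The seed ACAUUCA was found in 6 of the 1738 mature entries of the RefSeq table, and all 6 belong to this family. Outside the seed the arms fall into 2 pairs. Counted from the 5′ end, miR-181d-5p differs from miR-181b-5p by the single substitution C12U and is 1 base shorter. miR-181c-5p is miR-181a-5p with the base at position 11 removed. Between miR-181a-5p and miR-181b-5p the differences are A9U, C10U and A21G.

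The 3p arms do not carry that seed, and each one is found in a single annotated hairpin. They are shown because they are the stretches that separate the copies, again with bases 2 to 8 in capitals.
miR-181a-1-3p: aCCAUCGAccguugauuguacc
miR-181a-2-3p: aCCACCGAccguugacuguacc
miR-181b-1-3p: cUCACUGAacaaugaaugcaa
miR-181b-2-3p: cUCACUGAucaaugaaugcaaa
miR-181c-3p: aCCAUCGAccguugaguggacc
miR-181d-3p: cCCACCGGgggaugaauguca

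The 3p arms of the a copies differ by U5C and U16C, and those of the b copies by A9U. The change U5C lies inside bases 2 to 8, so the a copies have different 3p seeds, whereas the b copies share theirs. miR-181a-1-3p and miR-181c-3p also share bases 2 to 8.

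All 3 loci lie on mm10 chromosomes as closely spaced pairs transcribed in the same direction. Mir181a-1 (chromosome 1, 137966455 to 137966541, plus strand) is separated from Mir181b-1 (137966639 to 137966718) by 97 bases. Both overlap an exon of the lincRNA A430106G13Rik and an intron of the transcript Gm4258 on the same strand. Gm37632 lies on that strand 4455 bases from Mir181b-1. Mir181a-2 (chromosome 2, 38852735 to 38852810, plus strand) and Mir181b-2 (38853830 to 38853918) are 1019 bases apart. They are antisense to introns of Nr6a1, a nuclear receptor gene, and Mir181b-2 also lies opposite an exon of Gm44144. On their own strand, Nr6a1os lies 364 bases from Mir181a-2, and 5730507A11Rik lies 8244 bases from Mir181b-2. Mir181c (chromosome 8, 84178873 to 84178961, minus strand) and Mir181d (84178716 to 84178787) are 85 bases apart in an intron of Nanos3, a germ cell gene.

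Which reads could be assigned to a single gene differed between members. A read that matched several places was set apart by the authors' processing as multi-mapped and added to no gene. Full-length miR-181a-5p is contained in 2 annotated hairpins, and so is miR-181b-5p, whereas miR-181c-5p and miR-181d-5p are each contained in 1. In windows of 20 bases, 9 of 68 in Mir181a-1, 9 of 57 in Mir181a-2, 7 of 61 in Mir181b-1 and 7 of 70 in Mir181b-2 also occurred in the other copy. These windows covered the whole 5p arm in all 4 hairpins and no part of a 3p arm. No window of Mir181c (70 windows) or Mir181d (53 windows) was found in another hairpin. Windows were matched exactly, whereas the mismatches that the authors' alignment allowed are not known. Of all 2202 hairpins, 49.2% shared at least 1 window, on the same strand, with another.

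**Figure D1:**
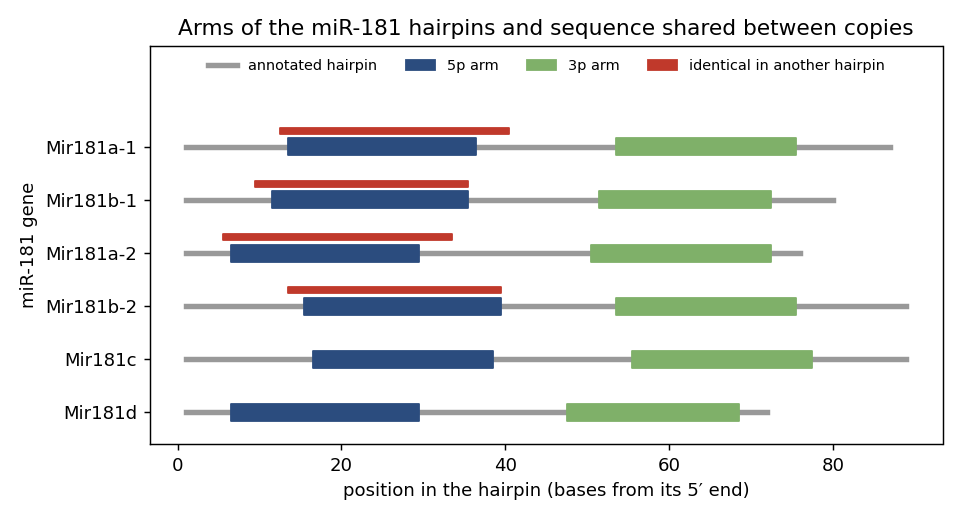
Hairpins of the 6 genes drawn to scale in bases from the 5′ end, with the 5p arm, the 3p arm and, above them, the stretch covered by 20-base windows that another annotated hairpin also holds. Shared stretches cover the 5p arms of the a and b copies, and Mir181c and Mir181d have none.

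The copies stop matching at different distances past the 5p arm, which is shown by 28 bases from the first base of the arm, with the first differing base in capitals.
Mir181a-1: aacauucaacgcugucggugaguuuggA
Mir181a-2: aacauucaacgcugucggugaguuuggG
Mir181b-1: aacauucauugcugucgguggguuGaac
Mir181b-2: aacauucauugcugucgguggguuUgaa

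In the a copies the hairpins are the same for 4 more bases after the 23 bases of miR-181a-5p, and position 28 is the first that differs. In the b copies the base right after the 24 bases of miR-181b-5p, position 25, already differs. The tables hold no read sequences, lengths or arms, so the counts below cannot be split into 5p and 3p reads. The counts of Mir181a-1, Mir181a-2, Mir181b-1 and Mir181b-2 leave out reads that match both copies and are therefore uncertain as levels of the mature miRNAs, whereas those of Mir181c and Mir181d can include both arms.

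Replicate 1 had 4196577 reads assigned to microRNA genes in sense, and replicate 2 had 3801738. Multi-mapped reads numbered 3657699 and 3929811, which was 115 and 120 times the family's own counts. A single read was worth 0.238 and 0.263 CPM (sense counts scaled to a library total of 1000000). All 7 striated muscle markers had reads and summed to 13094 CPM in replicate 1 and 8924 CPM in replicate 2. Mir208a, Mir208b and Mir499 of the myosin introns had 8774, 21693 and 24317 counts in replicate 1 and 4788, 11273 and 17613 in replicate 2. Mir1a-1, Mir1a-2, Mir133a-1 and Mir133a-2 had between 5 and 207 counts. These 4 are copies at 2 loci, and reads that match both copies are left out. Their counts and the sum of the 7 markers are therefore uncertain as levels of the mature miRNAs. The 8 neuronal markers summed to 368 and 303 CPM, mostly Mir128-1 with 1389 and 957 counts, and 4 of them were at 0 in both libraries. They are the numbered copies of Mir124a, Mir9 and Mir128, and reads that match several copies are left out. Low or 0 counts of these genes therefore do not show that the mature miRNAs were absent. The endothelial markers, nearly all Mir126a, summed to 109200 CPM in replicate 1 and 49330 CPM in replicate 2. The smooth muscle and pericyte markers, Mir143 and Mir145a, summed to 48576 and 79468 CPM. The white blood cell markers summed to 2219 and 2140 CPM, with Mir142b at 0. In whole tissue, fewer cells of a type and less RNA per cell cannot be told apart. Intervals below are 95% intervals and cover counting error only, since reads of an amplified library are not independent molecules.

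The family held 31686 sense counts in replicate 1 and 32764 in replicate 2. That was 0.755% (Wilson interval 0.747 to 0.763) and 0.862% (0.853 to 0.871) of each library, or 8084 ± 755 CPM (SD, n = 2). Nearly all of these assigned reads came from 3 genes, Mir181d, Mir181b-2 and Mir181c. The other 3 together held under 4% of the family's assigned reads in each library. Reads of miR-181a-5p and miR-181b-5p that match both copies are not in this total, so it does not give the make-up of the mature miRNAs.

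Mir181d, whose mature form is a near-copy of miR-181b, had the most assigned reads. It had 13789 counts in replicate 1 and 16233 in replicate 2, or 3286 CPM (exact Poisson interval 3231 to 3341) and 4270 CPM (4204 to 4336). It stood at rank 44 and rank 38 of the 2202 genes. Mir181b-2 followed with 11177 and 12324 counts, or 2663 CPM (2614 to 2713) and 3242 CPM (3185 to 3299), at ranks 48 and 45. The means of these genes were 3778 ± 696 CPM and 2953 ± 409 CPM, and their ranges of 1 SD overlapped. Within each library Mir181d was above Mir181b-2, by 1.23-fold (exact binomial interval 1.20 to 1.26) in replicate 1 and 1.32-fold (1.29 to 1.35) in replicate 2.

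Mir181c, the member linked to heart mitochondria, had 5842 counts in replicate 1 and 3098 in replicate 2. These came to 1392 CPM (1357 to 1428) and 815 CPM (786 to 844), a mean of 1103 ± 408 CPM at ranks 67 and 77. Mir181c was the third gene of the family in both libraries.

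The a copies were far lower in assigned reads, which leave out those that match both copies. Mir181a-1 had 636 counts (152 CPM, interval 140 to 164) in replicate 1 and 917 counts (241 CPM, 226 to 257) in replicate 2. Mir181a-2 had 164 counts (39.1 CPM, 33.3 to 45.5) and 89 counts (23.4 CPM, 18.8 to 28.8). Mir181b-1, the lowest member by its mean, had 78 counts (18.6 CPM, 14.7 to 23.2) and 103 counts (27.1 CPM, 22.1 to 32.9). Mir181a-2 and Mir181b-1 changed places, with Mir181a-2 higher in replicate 1 and Mir181b-1 higher in replicate 2, so their means of 31.2 ± 11.1 and 22.8 ± 6.01 CPM give no order. Mir181a-1 was above both in each library, with a mean of 196 ± 63.4 CPM. Every member lay above the level of 3 counts, 0.715 CPM in replicate 1 and 0.789 CPM in replicate 2, that a gene with no reads could still hold.

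**Figure D2:**
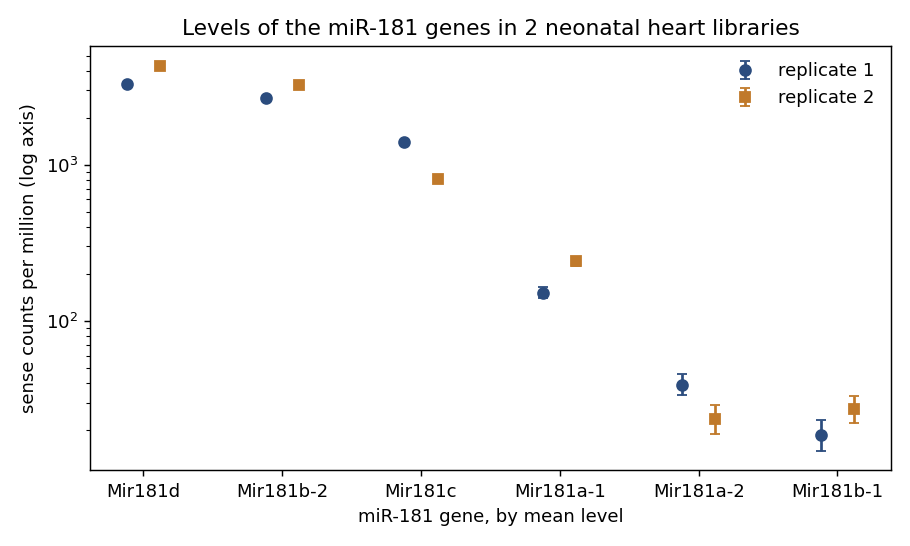
CPM of each miR-181 gene in replicate 1 (circles) and replicate 2 (squares) on a log axis, with exact 95% Poisson intervals of the counts. Mir181d, Mir181b-2 and Mir181c lie between 815 and 4270 CPM in both libraries, and the other 3 genes between 18.6 and 241 CPM.

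By locus, most of the assigned reads came from the pair in Nanos3. Mir181c and Mir181d together held 62.0% of the family's counts (Wilson 61.4 to 62.5) in replicate 1. In replicate 2 they held 59.0% (58.5 to 59.5). The Mir181a-2 and Mir181b-2 pair held 35.8% (35.3 to 36.3) and 37.9% (37.4 to 38.4). The Mir181a-1 and Mir181b-1 pair held 2.25% (2.096 to 2.42) and 3.11% (2.93 to 3.31). The order of the loci was the same in both libraries, and the gaps were wider than the SDs of 2.09, 1.48 and 0.61 percentage points. The pair in Nanos3 has no sequence in common with other hairpins at this window size, and the other pairs do, so the shares compare loci whose reads could be assigned to different extents.

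**Figure D3:**
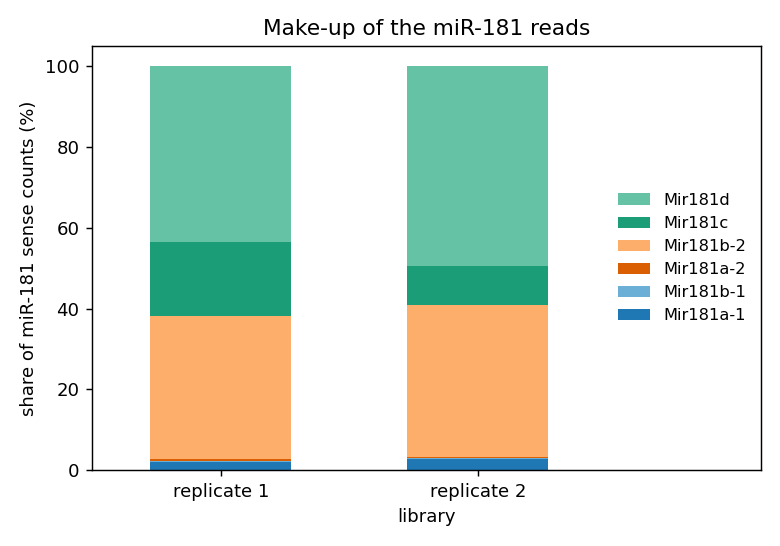
Share of the family's sense counts held by each gene, in percent, for replicate 1 and replicate 2. Mir181d takes 43.5% and 49.5%, Mir181b-2 35.3% and 37.6%, and Mir181c 18.4% and 9.46%.

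Neighbouring genes of one locus were unequal in assigned reads, and only 1 of the 3 ratios was alike in both libraries. Mir181d exceeded Mir181c by 2.36-fold (exact binomial interval 2.29 to 2.43) in replicate 1 and by 5.24-fold (5.04 to 5.45) in replicate 2, a log2 ratio of 1.81 ± 0.81 (SD, n = 2). Here the direction was shared, but the sizes lay well outside each other's counting error. Mir181b-2 exceeded Mir181a-2 by 68.2-fold (58.4 to 80.0) in replicate 1 and 138-fold (112 to 173) in replicate 2, which gave 6.59 ± 0.72 as log2. Mir181a-1 exceeded Mir181b-1 by 8.15-fold (6.44 to 10.5) in replicate 1 and 8.90-fold (7.26 to 11.0) in replicate 2, with overlapping intervals and a log2 ratio of 3.08 ± 0.09. The ratios compare reads of different miRNA sequences, and how evenly the library preparation captured those sequences was not tested. Reads that match both copies are left out of the a and b genes, and the copies stop matching at different distances past the arm. Ratios that hold an a or b gene are therefore uncertain as ratios of the mature miRNAs.

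The b copy of chromosome 2 and the a copy of chromosome 1 had the larger counts of their kind. Mir181b-2 exceeded Mir181b-1 by 143-fold (115 to 181.4) in replicate 1 and 120-fold (98.6 to 147) in replicate 2, a log2 ratio of 7.02 ± 0.18. Mir181a-1 exceeded Mir181a-2 by 3.88-fold (3.26 to 4.63) in replicate 1 and 10.3-fold (8.28 to 13.0) in replicate 2, or 2.65 ± 0.99 as log2. The gap of the b copies was thus similar in both libraries, and that of the a copies was not. As shown above, a read of miR-181b-5p that runs 1 base past its 3′ end matches a single b copy without a mismatch, while a read of miR-181a-5p does so from 5 bases past its end. Whether such reads make up the difference was not tested. Mir181a-1 held 79.5% of the a-copy counts in replicate 1 and 91.2% in replicate 2, and Mir181b-2 held 99.3% and 99.2% of the b-copy counts.

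The same reading was made in 18 other families with copies at 2 loci, for which RefSeq lists both genes in 16, each with an identical mature arm at both loci. Their larger copy exceeded the smaller by a median of 2.89-fold, as the mean of log2 (counts + 1) ratios. The widest gap with reads at both copies was in Mir92-1 and Mir92-2, at 62.9-fold in replicate 1 and 90.4-fold in replicate 2. Mir199a-2 had 140 and 89 counts, against 0 and 0 of Mir199a-1. By these point values the b copies of miR-181 lay above the range of the 17 other families with reads at both copies. The a copies lay inside it, and the Mir199a pair has no upper limit. Intervals of the b copies overlapped those of the Mir92 copies in replicate 2 (68.8 to 121) but not in replicate 1 (53.0 to 75.3). They also overlapped those of Mir7-1 over Mir7-2 in replicate 1 (6.84 to 220) and replicate 2 (11.4 to 2646). In 16 of the 18 families the same copy led in both libraries, the exceptions being Mir26a-1 with Mir26a-2 and Mir24-1 with Mir24-2. This list was chosen by name and is not complete, since Mirlet7f-1 and Mirlet7f-2 are not in it. It was described only, without a test.

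**Figure D4:**
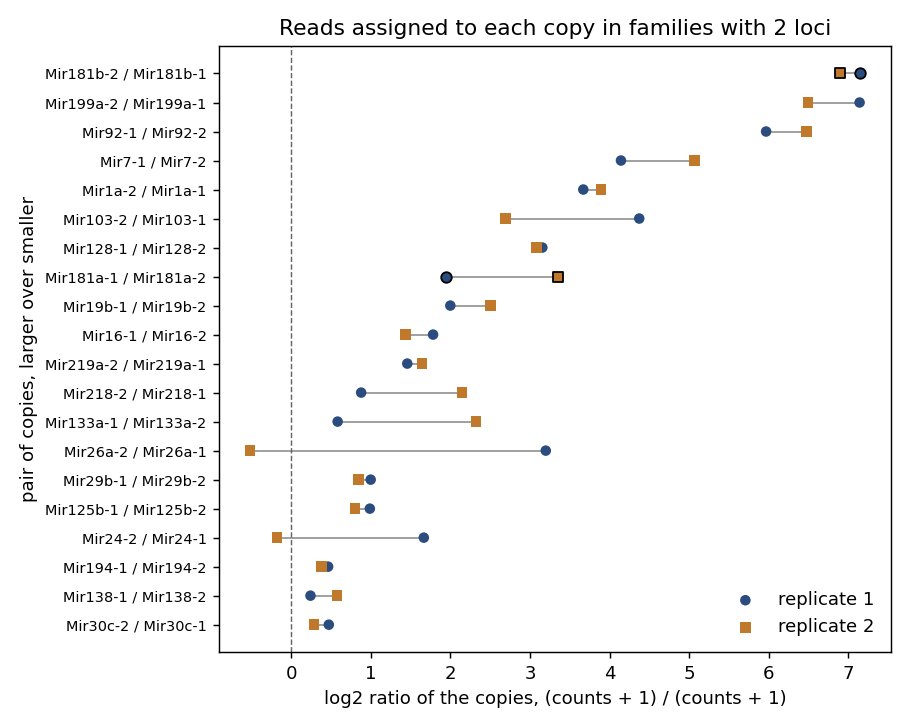
Log2 ratio of counts + 1 between the larger and the smaller copy of 20 families with 2 loci, in replicate 1 (circles) and replicate 2 (squares), the miR-181 pairs outlined in black. The miR-181b pair lies at 7.14 and 6.89 and the miR-181a pair at 1.95 and 3.35; the Mir199a pair rests on 0 counts of Mir199a-1, so its place depends on the added count.

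Between the libraries, the members moved in different directions. For each gene, its sense counts and those of all other genes were set side by side in a Fisher's exact test (two-sided), with Benjamini-Hochberg adjustment over the 441 genes that had at least 10 counts in all. This compares 2 libraries and not conditions, and takes counting error as the only error. All 6 members were apart at an adjusted p under 0.05, beside 56.9% of all tested genes. The test finds smaller differences at higher counts, and many tested genes had far fewer counts than Mir181d, Mir181b-2 and Mir181c. Higher in replicate 1 were 2 members (36.5% of all tested genes), and lower in replicate 1 were 4 (20.4%). The median log2 ratio of replicate 1 over replicate 2 was -0.33 over the members and 0.26 over all tested genes.

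Mir181c and Mir181a-2 were the members higher in replicate 1. Mir181c was 1.71-fold higher (exact binomial interval 1.64 to 1.78), a log2 ratio of 0.77 (adjusted p = 4.71e-133, Fisher's exact test). Mir181a-2 was 1.67-fold higher (1.28 to 2.19), a log2 ratio of 0.72 (adjusted p = 0.000207, Fisher's exact test). A log2 ratio at least as far from 0 as that of Mir181c was found in 28.8% of tested genes.

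The other 4 members were lower in replicate 1. The log2 ratio was -0.67 for Mir181a-1 (adjusted p = 4.11e-19, Fisher's exact test) and -0.52 for Mir181b-1 (adjusted p = 0.026, Fisher's exact test). It was -0.38 for Mir181d (adjusted p = 2.98e-113, Fisher's exact test) and -0.28 for Mir181b-2 (adjusted p = 1.32e-50, Fisher's exact test). Both Mir181c against Mir181d and Mir181a-2 against Mir181b-2 therefore went opposite ways within a locus, whereas Mir181a-1 and Mir181b-1 went the same way. TMM scaling (trimmed mean of M-values) lowered the median of all genes by 0.20 and DESeq2 scaling by 0.26. Relative to these shifts, all 6 members kept their direction and their call under both. With TMM scaling 54.4% of tested genes were called, 26.3% higher and 28.1% lower in replicate 1. The split of calls over all tested genes was 161 higher and 90 lower with total counts. It was 116 and 124 after TMM scaling, and 104 and 136 with size factors from DESeq2.

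With an estimate of spread beyond counting error, no member was apart. edgeR's exact test at a common biological coefficient of variation of 0.376 called 0 of the 6 members at an adjusted p under 0.05 and 0 at an unadjusted p under 0.05. It called 2 of 441 genes, and 25 had an unadjusted p under 0.05. The unadjusted p of the members ran from 0.249 for Mir181a-1 to 0.555 for Mir181a-2 (edgeR's exact test). That spread comes from the same 2 libraries, so few calls are built into the test. In Fisher's exact test, which takes counting error as the only error, marker lists differed between the libraries in both directions. Markers are called higher or lower here at an adjusted p under 0.05 in that test, not in edgeR's. Of all tested genes it called 36.5% higher and 20.4% lower in replicate 1. Only 1 endothelial marker was tested, Mir126a, and it was higher in replicate 1 (log2 ratio 1.15). Both smooth muscle and pericyte markers were lower in replicate 1 (median log2 ratio -1.32). Of the 7 striated muscle markers 3 were higher and 2 lower, and of the 5 white blood cell markers tested 2 were higher and 3 lower. Of the 3 fibroblast markers tested 2 were higher and 1 lower, of the 3 red blood cell markers 2 were higher and 0 lower, and of the 3 neuronal markers tested 1 was higher and 1 lower. The part of these markers in the members' ratios was not tested.

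**Figure D5:**
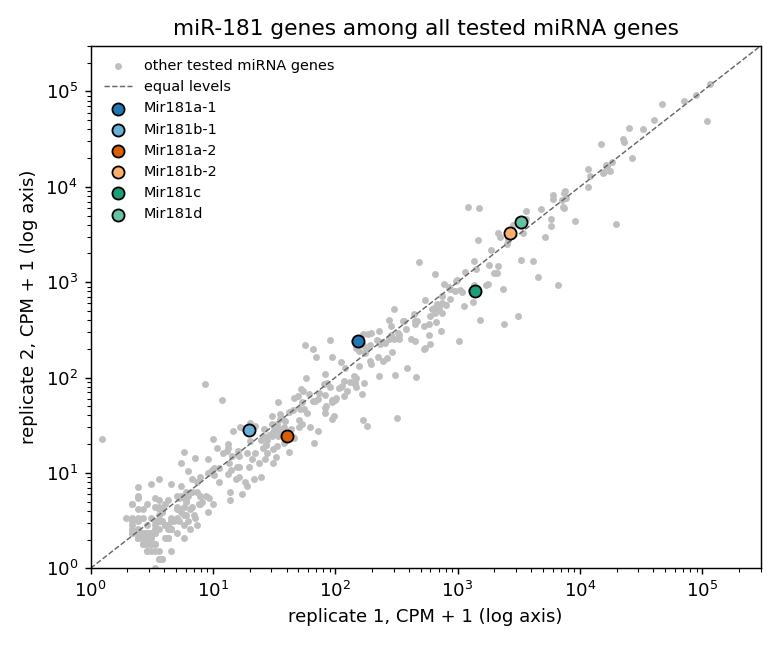
CPM + 1 in replicate 1 (horizontal) and replicate 2 (vertical) on log axes for the 441 tested genes, with the 6 miR-181 genes coloured and the line of equal levels dashed. Mir181c and Mir181a-2 lie below the line and the other 4 genes above it, within the cloud of all genes.

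The functional lists that hold members put these levels beside other miRNAs. Calls of higher and lower in these lists are those of Fisher's exact test. Among 11 miRNAs of vascular inflammation and NF-kB control, 10 were tested, 3 were higher and 6 lower in replicate 1 (36.5% and 20.4% of all tested genes), and the median log2 ratio was -0.36. Mir181b-2 was the third most abundant of them, after Mir126a, an endothelial miRNA of vessel integrity, at 79264 ± 42334 CPM and Mir17 at 7138 ± 1501 CPM. Mir10a, which restrains endothelial inflammation, followed at 931 ± 388 CPM. Full-length miR-181b-5p reads match both b copies and are left out, so the rank of Mir181b-2 is of assigned reads and not of all miR-181b.

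Among 8 lymphocyte miRNAs, all were tested, 3 were higher and 5 lower in replicate 1 (36.5% and 20.4% of all tested genes), and the median log2 ratio was -0.40. Mir181a-1 and Mir181a-2 had the lowest levels of this list apart from Mir223, a myeloid miRNA at 127 ± 24.4 CPM, which lay between them. Above them were Mir17, Mir34a at 972 ± 499.5 CPM, Mir155 at 881 ± 105 CPM, Mir150, a marker of mature lymphocytes, at 266 ± 53.4 CPM and Mir142 at 236 ± 72.0 CPM. Since full-length miR-181a-5p reads match both a copies, these are levels of the reads assigned to 1 copy and not of all miR-181a.

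Among 10 miRNAs reported in mitochondria or acting on mitochondrial transcripts, 9 were tested, 4 were higher and 3 lower in replicate 1 (36.5% and 20.4% of all tested genes), and the median log2 ratio was -0.02. The level of Mir181c came next after Mir378a at 117818 ± 1208 CPM, Mir21a at 13557 ± 2655 CPM, Mir499 at 5214 ± 821 CPM and Mir92-1 at 1616 ± 536 CPM. Mir1a-1 and Mir1a-2, also on this list, had means of 2.90 and 43.8 CPM. Reads that match both copies are left out of these genes and of Mir92-1. The order therefore ranks assigned reads and not the mature miRNAs. Mir762 had 0 counts in both libraries. Over the 36 genes of the 18 families with 2 loci, 33 were tested, 14 were higher and 6 lower in replicate 1 (36.5% and 20.4% of all tested genes), shares near the background, and the median log2 ratio was 0.24.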

How the data were processed

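The authors deposited, for each library, a table of raw read counts per microRNA gene. Reads of a size range under 30 were aligned to mm10 with GENCODE M21 genes, per the labels and the deposited description files. The aligner is not given in the sources used here. The tables count reads without regard to strand, on the gene's strand and on the opposite strand. The strand of each column was read from the values. Unmapped, multi-mapped, unassigned and ambiguous reads name no gene and were left out. They made up 56.2% and 59.1% of reads in replicates 1 and 2.

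Computed from these were CPM over all sense counts, log2(CPM + 1), and log2 (counts + 1) ratios between genes. Fisher's exact test ran in scipy 1.17.1, and edgeR 4.0.16 and DESeq2 1.42.0 gave the alternatives. With 1 library on each side, edgeR's quasi-likelihood fit leaves no degrees of freedom. The dispersion of edgeR's exact test used the 344 genes with at least 10 counts in each library. The Fisher procedure was tested on simulated data with counting error only, so that check does not cover spread beyond counting error. Mature sequences are from RefSeq (GRCm38.p6), and hairpins for the window search are GENCODE M21 transcripts. Copies outside annotated miRNA genes were not searched.

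The members and gene lists were chosen with earlier results of these data known. Named genes are the 6 members, the up to 4 most abundant genes of each list with those at 0, the 2 genes nearest to each member in level, genes that share its seed, and neighbours within 10 kb. Other genes of the lymphocyte list, the Mir24, Mir26a, Mir92 and Mir199a copies and the heart and blood markers were named after their values were seen.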

Additional observations from a re-analysis of the deposited data

How the results depend on the processing

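The 6 log2 ratios between members and the 3 locus shares moved by less than their SD when strand was ignored and, for the ratios, with 0.5 added in place of 1. With either library alone this holds by construction at n = 2. The family total of 8084 CPM became 10508 CPM when strand was ignored. The members' own counts differed there by 1 read in all, while the library totals were lower, at 3099807 and 3035432. Scaled to all reads accounted for in place of sense counts, it was 3415. The 251 genes apart between the libraries became 2, and the 6 members 0, with edgeR's exact test, which adds spread beyond counting error. Counts of genes and of members stayed within 1.5 times with TMM scaling, no count minimum, and strand ignored. With strand ignored, Mir181b-1 lost its call (adjusted p = 0.085, Fisher's exact test). No member changed direction under any alternative run. Comparisons between libraries cannot be repeated with a library left out. No paired analysis was possible because the labels give a single group. Depth limits Mir181b-1 and Mir181a-2, which had between 78 and 164 counts, and multi-mapped reads limit all a and b copies.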

Other observations

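The genes nearest to each member in level were sought among the 435 tested genes outside the family. Distance was taken in log2(CPM + 1) over the 2 libraries. Mir181d lay nearest to Mir98, a let-7 relative, with 3266 CPM in replicate 1 and 4277 CPM in replicate 2, and then to Mirlet7f-2 with 3326 and 3864 CPM. Mir181b-2 lay nearest to Mir361 (2582 and 2914 CPM) and Mir324 (2608 and 2786 CPM). Mir181c lay nearest to Mir423 (1285 and 830 CPM) and the Igf2 intron gene Mir483 (1360 and 930 CPM). For Mir181a-1 these genes were Mir31 (143 and 239 CPM) and Mir224 (163 and 234 CPM). For Mir181a-2 they were Mir449a (39.8 and 22.1 CPM) and Mir543 (44.6 and 22.6 CPM), and for Mir181b-1 Mir7j (16.7 and 28.4 CPM) and Mir677 (20.97 and 29.99 CPM). The distances ran from 0.0091 for Mir98 to 0.22 for Mir324. With 2 libraries this is closeness in level and carries no test.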
